A study of Gossypium hirsutum with 6 samples.

Results

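The loci described here are 511 positions in the leaf genome of upland cotton at which a peak of the histone mark H3K4me3 and a peak of the histone mark H3K27me3 were called over each other and at which both marks were listed again from a second library. They were drawn from 69877 narrow peaks on the 26 chromosomes, of which they make up 0.731%. A narrow peak of the first H3K4me3 library was kept where it shared at least 1 bp with a peak of the second narrow list and with a peak of each of the 2 broad lists. The loci were thus chosen by their measured overlaps between lists, and these overlaps are given as a description and not tested.

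H3K4me3 is laid down around the start of transcribed genes, and H3K27me3 is laid down by Polycomb repressive complex 2 over genes kept silent. Chromatin that carries both is called bivalent, a state described at developmental genes of animals and plants. In a leaf, both marks may sit on the same nucleosomes or in different cells of the tissue, and these cannot be told apart from peak lists.

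The libraries came from chromatin immunoprecipitation and sequencing (ChIP-seq) of leaves from untreated, 20-day-old plants of Gossypium hirsutum, line TM-1, with an antibody to H3K4me3 or to H3K27me3. Upland cotton is an allotetraploid with an A and a D subgenome, each of 13 chromosomes. The 6 samples were 2 libraries per antibody label and 2 input libraries without antibody, and 1 peak list from each of the 4 antibody libraries was used. The lists give peak positions with no height, score or read number, so the depth behind a peak is unknown, and nothing in the labels says whether replicate libraries came from separate plants.

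The 4 lists are named by the width of their peaks, because the second libraries carry one mark in the deposited name and the other mark in the sample label. The first narrow list (H3K4me3 replicate 1) had 69877 peaks with a median width of 495 bp. The second narrow list, deposited under the name of H3K4me3 but labelled H3K27me3 replicate 2, had 42643 with a median of 474 bp. The first broad list (H3K27me3 replicate 1) had 20749 peaks with a median of 1379 bp, and each of these peaks is called a domain. The second broad list, deposited under the name of H3K27me3 but labelled H3K4me3 replicate 2, had 24430 with a median of 1230.5 bp. A locus had to lie in all 4 lists, so the same 511 loci are obtained whichever mark is given to each of the second lists. What depends on the deposited names is the reading of the second narrow list as a repeat of H3K4me3. By the labels, a locus would have H3K4me3 called in one narrow and one broad list, and H3K27me3 likewise.

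To examine how often an H3K4me3 peak was found again inside and outside H3K27me3, the first narrow list was divided by the broad lists. Of all its peaks, 36989 (52.9%) overlapped the second narrow list and 8847 (12.7%) overlapped both broad lists. Among peaks in neither broad list, 36238 of 59118 (61.3%) were found in the second narrow list. Among the 8847 peaks in both broad lists, 511 (5.78%, exact binomial 95% interval 5.30 to 6.28%) were found there, which are the loci described, and 8336 were not. Repeated peaks in H3K27me3 thus were a small remainder of the peaks first listed there. The second narrow list itself had 527 of its 42643 peaks (1.24%, 1.13 to 1.35%) in both broad lists, and 471 of these 527 (89.4%, 86.4 to 91.9%) overlapped a peak of the first narrow list. The second narrow list thus had few peaks in the broad lists at all. Intervals of this kind take each peak as independent and reflect counting error alone.

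As a comparison, both narrow lists were moved together along each chromosome by 14 fixed offsets from 20 to 500 kb in either direction, with the broad lists kept in place. The moved lists met the rule at 1552 to 1826 peaks, with a mean of 1730, which was 3.39-fold more than the 511 found at the true positions. The number at the true positions was thus below that at each offset, and the lowest of the moved values came at an offset of -20 kb. The first narrow list taken alone went the other way, with 8847 peaks in both broad lists at the true positions and 3318 to 3470 after the offsets, a ratio of 2.62. Of the peaks that fell in both broad lists after the offsets, 46.0 to 54.3% overlapped the second narrow list, against 5.78% at the true positions. The 9 longer offsets, spaced evenly over the length of each chromosome, carry peaks into other chromosome regions. They gave 729 to 1628 peaks, and the observed number was 0.454 of their mean. The offsets are a description, with no p-value. With the 2 broad lists moved by the same 14 offsets instead, the observed number was 0.296 of the mean. Apart from the chromosome ends this mirrors the first comparison, so it adds no independent one.

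**Figure D1:**
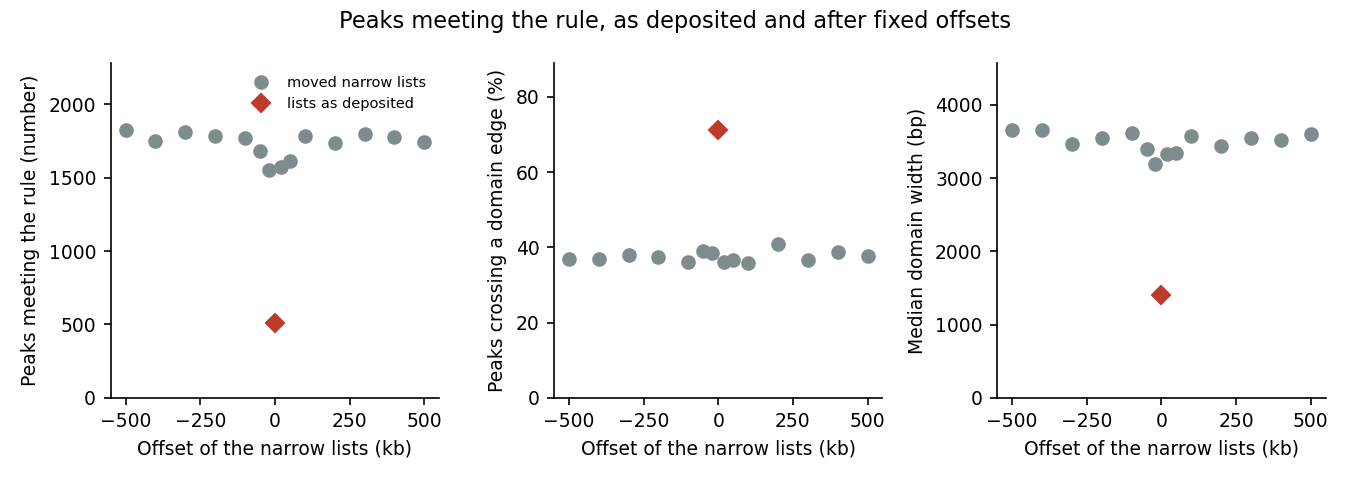
Number of peaks that met the rule, percent of them crossing a domain edge and median width of their domain in bp, against the offset in kb by which both narrow lists were moved. The red diamond at offset 0 is the lists as deposited (511 peaks, 71.2% and 1405 bp) and the grey points are the 14 fixed offsets, all of which lie at 1552 to 1826 peaks, 36.0 to 40.9% and 3187 to 3656.5 bp.

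The share of narrow peaks found again fell towards H3K27me3 domains before their edges were reached. It was 63.2% for the 46959 peaks whose centre lay more than 10 kb outside the nearest domain, 53.2% at 2 to 5 kb and 40.9% at 1 to 2 kb. It was 20.0% at 0.5 to 1 kb and 10.8% within the last 0.5 kb outside the edge. Inside the domain it was 10.1% within 250 bp of the edge, 9.15% at 250 to 500 bp and 3.97% at 500 to 1000 bp. At 4 kb or more from an edge, 9 of 412 peaks (2.18%, 1.00 to 4.11%) were found again. Beyond 1 kb inside an edge the 3 shares lay between 1.81 and 2.18% and their intervals overlapped. These shares use the overlap that defines the loci, and are a description of it.

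**Figure D2:**
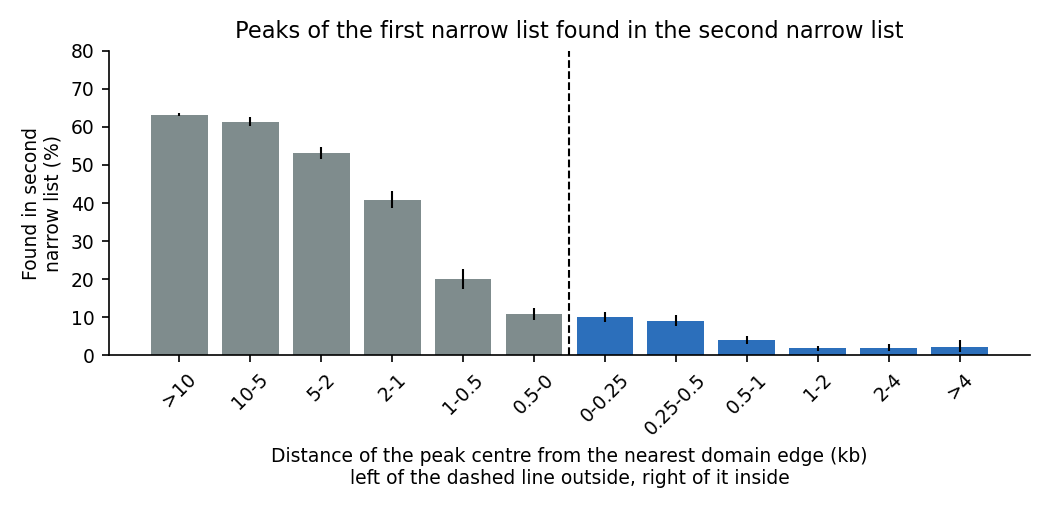
Percent of peaks of the first narrow list that overlapped the second narrow list, by the distance in kb of the peak centre from the nearest edge of a domain, outside (grey) and inside (blue) the domain. Bars with 95% exact binomial intervals fall from 63.2% beyond 10 kb outside to 10.8% in the last 0.5 kb outside, and to between 1.81 and 2.18% at more than 1 kb inside.

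Most of the loci reached past a domain edge, while the peak centres inside a domain were spread evenly from its edge to its centre. Of the 511 peaks, 151 crossed the left edge of their domain (the edge with the lower coordinate), 122 crossed the right edge and 91 covered the whole domain, so that 364 (71.2%, 67.1 to 75.1%) reached past an edge. The remaining 147 (28.8%) lay wholly within the domain, and 115 (22.5%, 19.0 to 26.4%) lay wholly within a peak of both broad lists. The word inside thus holds for an overlap, and for fewer than 1 in 3 of the peaks in full. The peak centre was outside the domain at 101 loci (19.8%), against 651 of the 8336 unrepeated peaks (7.81%). The median distance from the peak centre to the nearest edge was 238 bp inward, with a range from 1009 bp outside (-1009 bp) to 10623 bp inside, against 664.5 bp for the unrepeated peaks. A median of 82.0% of the narrow peak was in the domain, against 100% for the unrepeated peaks.

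The position in the domain was compared between the loci and the 8336 unrepeated peaks, which meet the same overlap rule with the broad lists. Values were taken per chromosome number, with the A and D chromosome of a number together, and differences were tested over the 13 chromosome numbers by exact permutation of their signs (two-sided), with Benjamini-Hochberg adjustment over 10 tests. The share of peaks past an edge was 42.5 ± 5.14 percentage points (SD, n = 13) higher at the loci, and higher in 13 of 13 numbers (exact permutation p = 0.000244, the smallest that 13 numbers can give, adjusted p = 0.00061). On the 26 single chromosomes it was 46.2 to 92.9% at the loci and 20.8 to 36.0% at the unrepeated peaks, so the values did not overlap. Relative depth, the distance of the peak centre from the nearest edge divided by the distance from edge to centre of the domain, is 0 at an edge, 1 at the centre and negative outside. Its mean was 0.292 at the loci and 0.464 at the unrepeated peaks, a difference of -0.17 ± 0.08, and was lower in 13 of 13 numbers (exact permutation adjusted p = 0.00061). On single chromosomes the loci were lower in 22 of 26. Over all 511 loci the mean depth was 0.290, and at peaks that met the rule after the 14 offsets it was 0.314 to 0.344. In depth the loci were thus closer to the moved peaks than to the unrepeated peaks. The share past an edge was 36.0 to 40.9% after these offsets, against 71.2% at the loci. A relative depth of at least 0.5 was found at 195 loci (38.2%, 33.9 to 42.5%) and at 4293 unrepeated peaks (51.5%, 50.4 to 52.6%). Chromosome numbers are not biological replicates, and these tests describe the spread over the genome of 1 set of lists. Position is measured on the overlap with the first broad list, and the groups are split by the second narrow list. Both lists are part of the rule, so the p-values give no support beyond it. Whether the differences go beyond what the rule itself gives was not tested, and the test of domain width below has the same limit.

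The domains under the loci were narrower than those under the unrepeated peaks, and close in width to domains in general. Their median width was 1405 bp, with quartiles of 696 and 3247 bp and a range from 200 to 30828 bp, against 3031.5 bp for the domains under the unrepeated peaks and 1379 bp for all domains. By length alone a peak meets a wide domain more easily than a narrow one, and after the 14 offsets the median was 3187 to 3656.5 bp. The log2 width at the loci less that at the unrepeated peaks was -1.17 ± 0.40 (SD, n = 13), and it was negative in 13 of 13 chromosome numbers (exact permutation adjusted p = 0.00061) and on 25 of 26 single chromosomes. Width is taken from a list that is part of the rule, so this p-value gives no support beyond the rule. Domains under 1 kb held 205 loci (40.1%, 35.8 to 44.5%), 1298 unrepeated peaks (15.6%) and 39.1% of all domains. Domains of 8 kb or more held 30 loci (5.87%), 1175 unrepeated peaks (14.1%) and 4.23% of all domains. The loci were thus spread over domain widths much as the domains themselves, and the unrepeated peaks lay in wider domains than domains in general. Set against the moved lists, the median of 1405 bp at the loci was below that at each of the 14 offsets. The median of 3031.5 bp at the unrepeated peaks was also below that range, but closer to it. Among the narrow peaks in both broad lists, the share found again was 13.8% in domains under 500 bp, 6.63% at 1 to 2 kb and 2.49% at 8 kb or more.

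**Figure D3:**
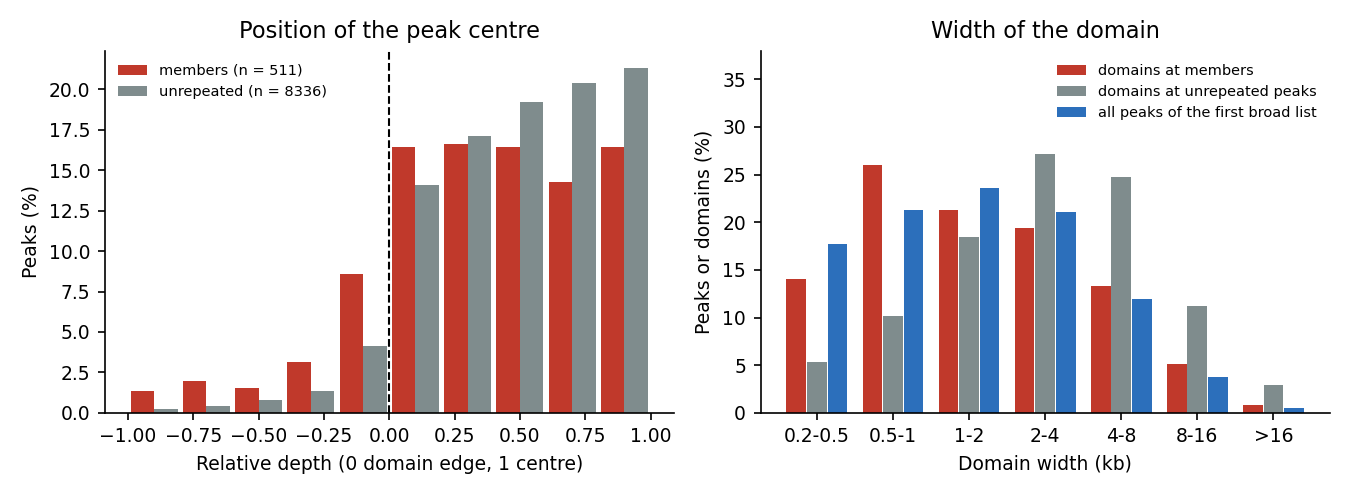
Left, percent of peaks by relative depth of the peak centre in the domain (0 edge, 1 centre), for the 511 loci (red) and the 8336 unrepeated peaks (grey), leaving out 16 loci and 75 unrepeated peaks below -1. Right, percent of loci, of unrepeated peaks and of all domains of the first broad list (blue) by width of the domain in kb. The loci are spread evenly from edge to centre and are the larger share on the left of the edge, and 13.3% of them lie in domains of 4 to 8 kb, against 24.8% of unrepeated peaks.

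Edge position and domain width went together. The median domain width was 536 bp at the 91 loci covering their domain, 1262 and 1280.5 bp at loci across the left and the right edge, and 3756 bp at the 147 loci wholly within it. For the 115 loci wholly within both broad lists, set against unrepeated peaks of the same kind, the difference in depth was -0.0289 (exact permutation adjusted p = 0.516) and that in log2 width -0.04 (exact permutation adjusted p = 0.852). Neither passed the threshold of 0.05, so the differences in depth and width were found for the loci as a whole and were not shown for those away from an edge. Among the narrow peaks in both broad lists, 364 of 2727 across an edge (13.3%, 12.1 to 14.7%) were found again and 147 of 6120 not across one (2.40%, 2.03 to 2.82%).

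The narrow peaks at the loci were wider, by their median, than those of both comparison groups. Their median width was 754 bp (quartiles 512 and 1057 bp), against 443 bp for the unrepeated peaks in both broad lists and 612 bp for repeated peaks in neither. A wide peak is more easily found again by an overlap of 1 bp. In both broad lists the share found again was 1.39% for peaks under 300 bp and 18.3% for those of 1000 to 1500 bp, and in neither broad list it was 36.5% and 83.0%. With peaks of 500 to under 1000 bp alone, a choice made after the widths were seen, 71.5% of 235 loci crossed an edge against 36.2% of 2874 unrepeated peaks. In the subset of these peaks with domains of 1000 to under 4000 bp the shares were 62.8% of 94 and 36.1% of 1310, and the mean relative depths 0.328 and 0.476. The difference in edge position was thus also found within this range of widths. Peak widths of the loci and the unrepeated peaks were not matched further inside the range, and the part of peak width was not tested.

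At most loci the same bases were under all 4 lists. A shared stretch was found at 452 of 511 (88.5%, 85.4 to 91.1%), with a median length of 240.5 bp and a range from 5 to 916 bp, and was at least 200 bp long at 316 (61.8%, 57.5 to 66.1%). At the others, the overlaps of the narrow peak with the other lists had no base in common. Of the 452, 67.5% crossed a domain edge and the mean relative depth was 0.376. The peak of the second narrow list was shorter, with a median of 340 bp, than that of the first. Where the first narrow peak crossed 1 edge, the centre of the second narrow peak was further out at 162 of 273 loci (59.3%, 53.3 to 65.2%) and further in at 111. Over all 273 the median displacement, positive towards the domain centre, was -25.5 bp. At 140 of the 147 loci wholly within the domain, the second narrow peak was also wholly within it. The peak of the second broad list was wider than the domain at 260 loci (50.9%, 46.5 to 55.3%). The log2 ratio of both widths had a 10th percentile of -1.13 and a 90th percentile of 0.96, so the 2 broad lists differed in width at many single loci.

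Few loci stood at the limit of the rule, and 38 had a smallest overlap under 100 bp. The locus with the least overlap, D08:1687205-1687483, shared 6 bp with the second broad list, and A05:5900146-5900431 shared 8 bp with the second narrow list. Just outside the rule, the peak D01:6524775-6525029 touched the second broad list without a shared base, and A05:9821534-9821964 lay 3 bp from the second narrow list. Of the 8336 unrepeated peaks, 11 were within 100 bp of the second narrow list.

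Of the 511 loci, 225 were on A and 286 (56.0%, 51.5 to 60.3%) on D chromosomes, against 54.8% of all domains and 55.4% of the unrepeated peaks on D. The log2 ratio of D to A number was 0.42 ± 0.59 (SD over 13 chromosome numbers), and 9 of the 13 had more loci on D (p = 0.0251 by exact permutation, adjusted p = 0.0359). It was 0.37 ± 0.57 above that of repeated peaks in neither broad list, whose ratio was 0.04 (exact permutation p = 0.0332, adjusted p = 0.0415). Set against the unrepeated peaks in the same broad lists, with a ratio of 0.31, the difference was 0.11 ± 0.62 and did not pass (higher in 6 of 13, exact permutation p = 0.531). Neither of the first 2 results was stable. The ratio of the loci kept an adjusted p under 0.05 in 5 of 13 omissions of a chromosome number, and its difference from the repeated peaks in neither broad list in 4 of 13 (adjusted p up to 0.0830, exact permutation). That difference was 0.38 for the 452 loci with a shared stretch (adjusted p = 0.0604, exact permutation), 0.40 without the first narrow list (adjusted p = 0.0549, exact permutation) and 0.22 without the second broad list (adjusted p = 0.140, exact permutation). The ratio of the loci was 0.42 for the 452 loci with a shared stretch (exact permutation adjusted p = 0.0604), 0.43 without the first narrow list (adjusted p = 0.0549, exact permutation) and 0.27 without the second broad list (adjusted p = 0.112, exact permutation).

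Per domain the values of the subgenomes were close and their intervals overlapped. A locus was found in 219 of 9381 A domains (2.33%, 2.04 to 2.66%) and in 276 of 11368 D domains (2.43%, 2.15 to 2.73%), and the share of narrow peaks in both broad lists that was found again was 5.70% on A (5.00 to 6.47%) and 5.83% on D (5.19 to 6.53%). Over the length between the outermost peaks, 1160 Mb of A and 774 Mb of D, there were 0.194 and 0.369 loci per Mb. After the 14 offsets the D share was 54.2 to 60.0%, a range that includes the 56.0% at the true positions. The observed number was 0.304 of the mean after the offsets on A and 0.289 on D. The differences in edge position, domain width and chromosome position were compared between A and D chromosomes within a family of 7 tests, and none passed (exact permutation, adjusted p from 0.479 to 0.976).

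Single chromosomes had 7 to 34 loci. The most were on A11, with 34, and the fewest on A01, with 7, which were 2.76% of its narrow peaks in both broad lists. The highest D to A ratio was at number 1, with 7 loci on A01 and 20 on D01 (log2 ratio 1.45), followed by number 13, with 11 and 29 (1.36). The lowest was at number 10, with 25 on A10 and 18 on D10 (-0.46). D13 stood highest in the share found again, with 10.1% of its narrow peaks in both broad lists, and in loci per 100 domains, with 4.37.

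**Figure D4:**
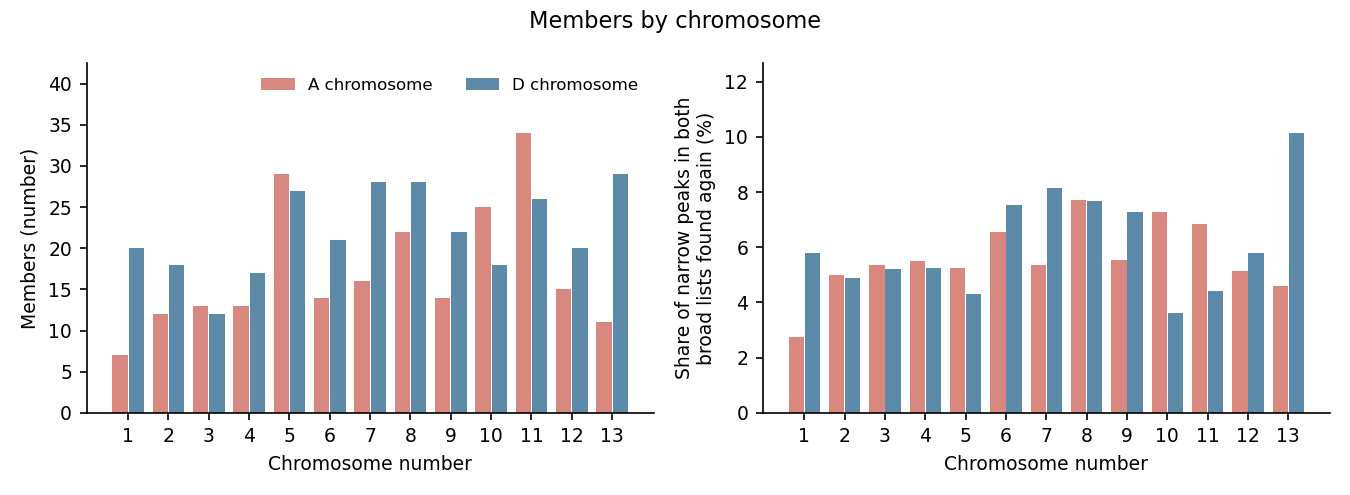
Number of loci (left) and percent of the narrow peaks in both broad lists that were found in the second narrow list (right) for each chromosome number, on A (red) and D (blue) chromosomes. Each bar is 1 chromosome without replicates. Numbers run from 7 on A01 to 34 on A11, and shares from 2.76% on A01 to 10.1% on D13.

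Along the chromosomes, 192 loci (37.6%, 33.4 to 41.9%) lay within 5 Mb of a chromosome end, against 34.6% of the unrepeated peaks and 30.7% of repeated peaks in neither broad list. On a scale from 0 at the end to 1 at the middle of a chromosome, the mean position was 0.297 for the loci and 0.327 for the repeated peaks in neither broad list, a difference of -0.0309 ± 0.0410 (nearer to the ends in 11 of 13 chromosome numbers, exact permutation p = 0.0215, adjusted p = 0.0358). This was not stable either: 6 of 13 omissions of a chromosome number kept it under 0.05, and it was -0.0169 without the second broad list (adjusted p = 0.159, exact permutation). Against the unrepeated peaks the difference of -0.0125 ± 0.0429 did not pass (exact permutation adjusted p = 0.340). After the 14 offsets the mean position was 0.202 to 0.224, nearer to the chromosome ends than at the true positions, and after the 9 longer offsets it was 0.227 to 0.409.

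The surroundings of the loci were described by their repeated neighbours. These are set by the same overlap with the second narrow list as the loci, so no p-value is given. Within 10 kb of the centre there were on average 0.499 other repeated narrow peaks at the loci and 0.944 at repeated peaks in neither broad list, a difference of -0.444 ± 0.129 (SD over 13 chromosome numbers). No such neighbour was found at 322 loci (63.0%, 58.7 to 67.2%), against 40.2% of the repeated peaks in neither broad list and 70.4% of the unrepeated peaks. Compared with the unrepeated peaks, the loci had 0.105 ± 0.141 more neighbours, with more in 11 of 13 chromosome numbers. With peaks under 500 bp apart merged, the difference was -0.00072.

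The loci were mostly single. The 511 loci lay in 495 domains (2.39% of 20749, 2.18 to 2.60%), of which 479 held 1 locus and 16 held 2. Of the 485 gaps between neighbouring loci on a chromosome, 22 were under 10 kb, 45 were under 100 kb and 285 were over 1 Mb, with a median of 1480.5 kb. The 1 Mb window with most loci, D01:1497138-2497137, held 7, among 20 narrow peaks in both broad lists. Of these 7, D01:1497019-1497256 and D01:1497430-1497793 crossed opposite edges of 1 domain of 523 bp, and D01:2124611-2125534 covered a domain of 200 bp. On A chromosomes the highest number was 4, in 1 window each of A08, A09 and A10.

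The longest stretches under all 4 lists show what the most complete overlaps looked like. On A chromosomes the longest was 821 bp, in A11:72384430-72385535, where the first narrow peak of 1106 bp lay wholly in a second narrow peak of 1190 bp and crossed the right edge of a domain of 2212 bp. The next were A05:25333405-25334301, with 810 bp in a domain of 1631 bp, and A07:20149235-20150946, with 745 bp at the right edge of a domain of 8116 bp. Of these 3, the A05 peak alone lay wholly within its domain, at a relative depth of 0.648.

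On D chromosomes the longest stretch was 916 bp, in D01:56785562-56786656, a peak of 1095 bp that crossed the left edge of a domain of 1747 bp. It was followed by D06:55181087-55182231, with 855 bp at the left edge of a domain of 5960 bp. The third, D13:42256684-42257593, had 825 bp in the middle of a domain of 947 bp, of which narrow peaks of the first list covered 96.1% and of the second list 87.1%. The D13 locus was thus a domain almost filled by narrow peaks, while 4 of the other 5 were overlaps at an edge.

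The widest domains with a locus were mostly free of narrow peaks. On A08 the domain 1189902 to 1208709 was 18808 bp wide and held 5 peaks of the first narrow list, of which 1 was found again, A08:1206672-1207417. On D11 the domain 63334042 to 63364869 was 30828 bp wide, and its counterpart in the second broad list 30829 bp. The locus D11:63335430-63335822 was its sole peak of the first narrow list, 1388 bp from the domain start, and covered 1.27% of it. The loci farthest from an edge were D10:59765518-59766147, 10623 bp from the nearest edge in a domain of 21510 bp, and A11:86109866-86110464, 6480.5 bp from the nearest edge in a domain of 14500 bp. Their relative depths were 0.988 and 0.894, so both lay close to the domain centre. The widest domains with a pair of loci were A02:6228860-6238899, with A02:6232760-6233151 and A02:6234638-6235001 near its centre, and D01:2233945-2245878, with D01:2234579-2235010 and D01:2235249-2235870 near its left edge.

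**Figure D5:**
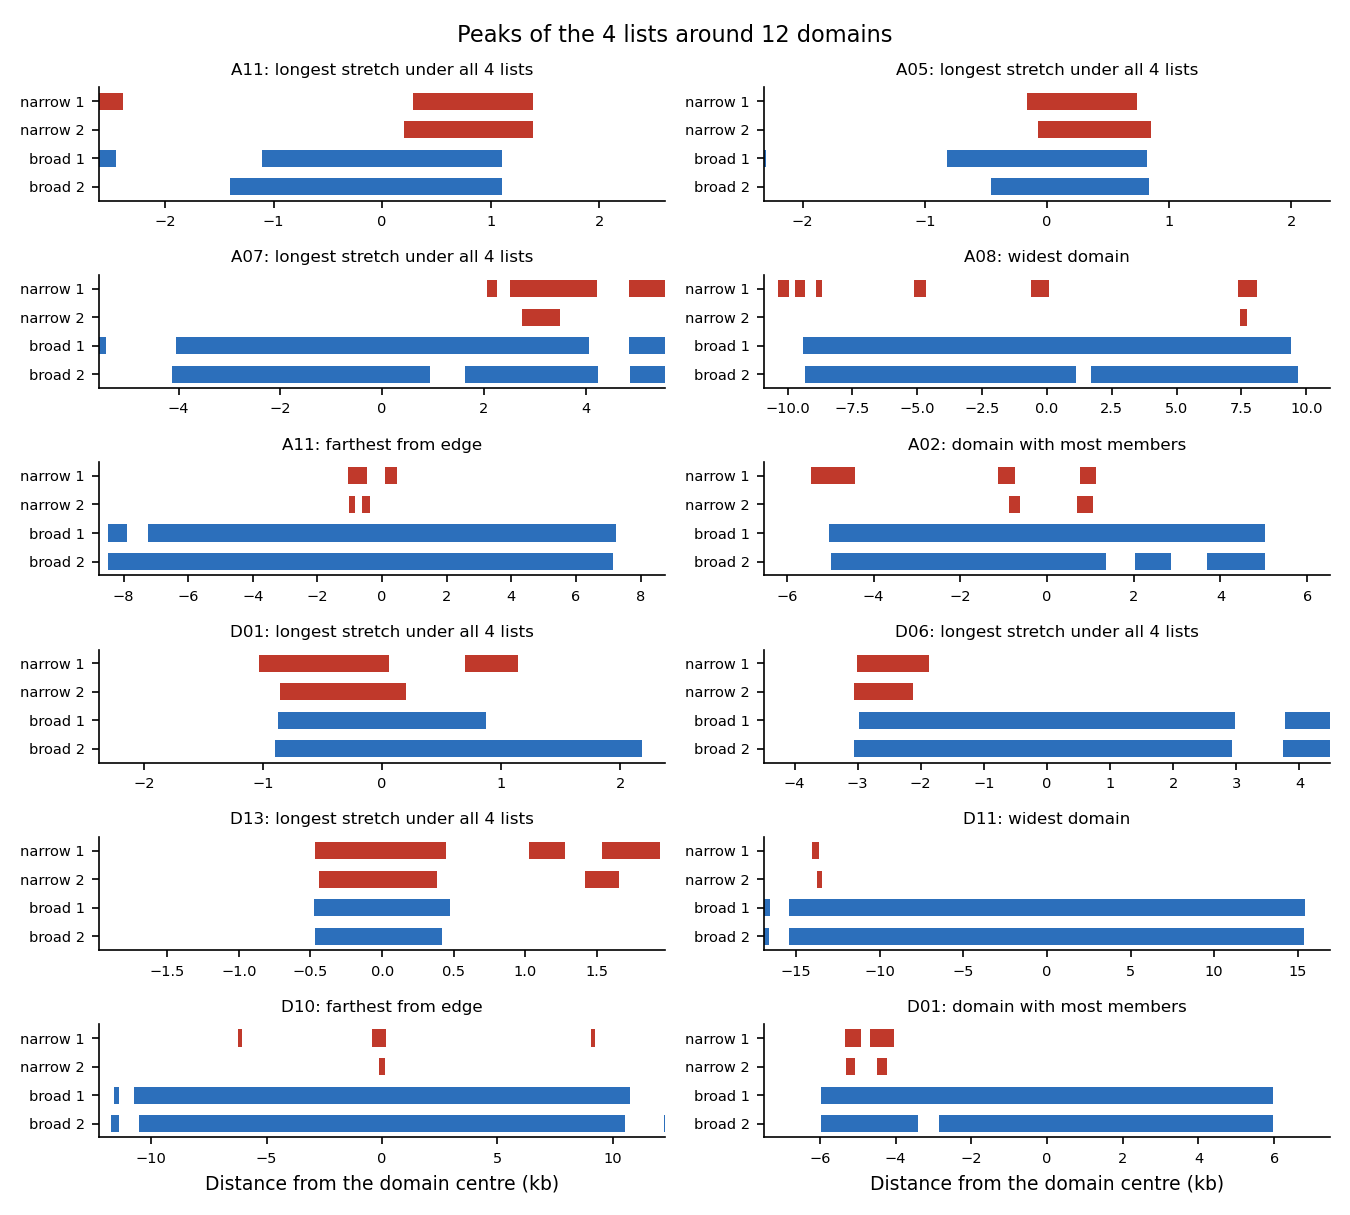
Peaks of the first and second narrow lists (red) and of the first and second broad lists (blue) around 12 domains with a locus, against the distance in kb from the domain centre; a peak that runs past a panel's border is drawn to the border. The panels show the loci with the longest stretch under all 4 lists, the widest domain, the largest distance from an edge and the widest domain with a pair of loci, for A (upper 6 panels) and D chromosomes (lower 6 panels). In the D11 domain of 30828 bp 1 narrow peak of each list lies near the left edge, and in the D13 domain of 947 bp narrow peaks fill nearly all of it.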

How the data were processed

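The deposited files are lists of peak start and end positions in bp, in 3 columns without a score. According to the study's methods, the authors trimmed reads with fastp, aligned them with Bowtie2 to a published TM-1 genome, filtered duplicates (Picard) and poorly mapped reads (SAMtools), and called peaks with MACS2 without its fragment model, in narrow mode for H3K4me3 and broad mode for H3K27me3. These methods describe peak calling on the first replicates, the second serving as a check of repeatability, and how the second lists were called is not given in the sources used here. Tool versions and the use of the input as control are not given there either. The mode of the second lists was inferred from peak widths. Broad mode joins neighbouring stretches, and a longer list gives more overlaps, so widths and overlaps depend on these settings.

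Overlaps of at least 1 bp on the 26 chromosomes were counted in Python 3.11.15 with numpy 2.4.6 and pandas 2.3.3, and 0 of 12 counts differed from bedtools 2.31.1. The domain of a locus is the peak of the first broad list with most shared bases. Offsets were circular between the outermost peaks of a chromosome. Shares have exact Clopper-Pearson 95% intervals (scipy 1.17.1). Tests were exact two-sided sign-flip permutation tests over 13 chromosome numbers (8192 sign patterns), with 0.5 added to numbers before log2 ratios of D to A. The tests against unrepeated peaks were checked on the same peaks with their class labels shuffled. The depth test was also checked with a planted difference, and the other tests were not checked in this way. Figures were drawn with matplotlib 3.10.9. Regions named are, in each subgenome, the 3 loci with the longest stretch under all 4 lists, the widest domain, the domain with most loci (ties by width), the locus farthest from an edge and the 1 Mb window with most loci, and the chromosomes or chromosome numbers with the highest and lowest number or ratio. The loci, measures and lists were chosen with earlier results of these data known. Alternatives were an overlap of 50%, peaks wholly inside, peaks of at least 500 bp, merged peaks, the other broad list as domain, medians, neighbours within 50 kb, other offsets, added scaffolds, and omission of each list or chromosome number. Genome sequence and gene annotation were not used here, so no gene is named.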

Additional observations from a re-analysis of the deposited data

Results flagged for a closer look

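Scaffolds that name a chromosome, which entered none of the comparisons, held 44 further peaks that met the rule, of 5639 narrow peaks there (0.780%), a share close to the 0.731% on the chromosomes. They were 28 on A and 16 on D scaffolds, among 766 narrow peaks in both broad lists. They were noted because they lie outside the positions analysed, and with them there were 555 loci.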

How the results depend on the processing

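The number of loci was 160 with an overlap of 50% of the narrow peak, 115 with the peak wholly inside both broad lists and 93 with peaks of at least 500 bp in each of the 4 lists, and, for subsets chosen after the data were seen, 235 with first narrow peaks of 500 to under 1000 bp and 94 of these in domains of 1000 to under 4000 bp. Without 1 of the lists it was 527 to 8847. The ratio to the moved lists was 0.157, 0.120 and 0.134 under the first 3 of these settings and 0.454 with the 9 longer offsets. Without 1 of the lists it was 0.275 to 2.62, the last without the second narrow list, where no repeat is asked for.

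The D to A ratio of the loci was 0.69 (50%), 0.45 (wholly inside), 0.47 (at least 500 bp) and 0.42 (loci with a shared stretch, added later), none with an adjusted p under 0.05, and 0.27 to 0.49 without a list or chromosome number. Less that of repeated peaks outside it was 0.65, 0.40, 0.42 and 0.38, 0.36 at 500 to under 1000 bp, and 0.22 to 0.44 in omissions, and less that of unrepeated peaks it turned to -0.19 at 500 to under 1000 bp in domains of 1000 to under 4000 bp, and was -0.00204 to 0.21 in omissions.

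The depth difference no longer passed when wholly inside (-0.0289) or at least 500 bp (-0.0796), nor the log2 width difference when wholly inside (-0.0411) or in domains of 1000 to under 4000 bp (-0.13), a setting that fixes the width. The position difference from repeated peaks was -0.0448 (at least 500 bp), -0.0251 (merged), -0.0321 (medians) and -0.0388 to -0.0169 in omissions, and that from unrepeated peaks passed when wholly inside (-0.0322) and at 500 to under 1000 bp (-0.0316) and turned to 0.00774 in domains of 1000 to under 4000 bp. The neighbour difference from unrepeated peaks, a description, was 0.126 (wholly inside), 0.000816 (at least 500 bp), -0.00072 (merged), 0.198 (50 kb), 0.0385 (medians), 0.0801 (500 to under 1000 bp) and -0.0583 (in domains of 1000 to under 4000 bp). The cause of these changes was not tested. The share past an edge kept direction and threshold in all settings run in which a peak can cross one. Depth, width and edge share are measured on lists that are part of the rule, so passing a threshold gives no support beyond the rule.

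No paired analysis was possible because no result is tested between libraries. A stricter peak threshold was not run, as the lists hold no score. The study reports read numbers per library, which were not used here, and the read depth behind a single peak is unknown. A peak missing from a list is thus not shown to be absent from the tissue.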
